A study of Homo sapiens with 7 samples.

Results

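The MYC, MAX and MXD network was examined in MEG-01, a human cell line established from a megakaryoblastic leukemia, with and without knockdown of the RNA binding protein RBM15. The network was taken as 9 genes, MYC, MAX, MXD1, MXI1, MXD3, MXD4, MNT, MLX and MGA, which were matched by symbol to Ensembl identifiers among the 62238 genes of the exon count tables. All 9 were found. The genes were chosen by a measured value, the lower count of an exon bin of MAX in the knockdown lines of these same libraries, so the values of MAX are given as a description with no test. The other 8 genes were chosen as members of the network around MAX, with earlier results of these data known. They are tested in the same comparison, and their counts of calls are printed beside the share called among all genes or bins, with nothing read from them.

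The RNA-seq comprised 3 unstranded libraries of total RNA from exponentially growing cells at passage 5. One was the control, which is MEG-01 with no knockdown named in its labels, and the others were 1 stable line each with RBM15 knockdown by shRBM15#1 or by shRBM15#2. All 3, the control included, are labelled as carrying lentiviral transgenes, and the study's methods describe selection of knockdown lines with puromycin. A RIP-seq experiment, in which RNA bound by RBM15 was immunoprecipitated, contributed 1 library with normal IgG and 1 with the RBM15 antibody. A further 2 RIP libraries were not assigned, because their antibody labels conflict with the side of the authors' comparison.

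MYC, MAX and their relatives are basic helix-loop-helix leucine zipper proteins that bind E-box DNA as dimers. MAX is the shared partner. With MYC it forms an activator of genes for ribosome production, metabolism and the cell cycle, and with the MXD proteins, MNT or MGA it forms complexes that repress many of the same genes. MLX is a second shared partner that joins MondoA and some MXD proteins to the network. In blood cells a fall of MYC and a rise of MXD proteins are known to accompany terminal differentiation.

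The 3 libraries held 53230029 counts on exon bins in the control, 41629454 in shRBM15#1 and 52458857 in shRBM15#2. An exon bin is a stretch of a gene's annotated exons that is cut wherever transcripts differ, and a bin lying in an intron of the main transcript belongs to a rarer one. A read was counted in every bin it touched, so values below are bin counts and not reads. Depth-scaled counts (CPM) use TMM, edgeR's scaling between libraries. RBM15 itself stood at 80.2 CPM in the control, 43.7 in shRBM15#1 and 40.7 in shRBM15#2, a log2 fold change of -0.93 ± 0.23 (SE) with an adjusted p of 0.0908 in edgeR's quasi-likelihood test. Of 8 megakaryocyte lineage markers, 6 were above 1 CPM in the control, and their summed level was 1240 CPM in the control, 914 in shRBM15#1 and 1184 in shRBM15#2. PF4 and GP9 had between 2 and 5 counts in every library, so these defining markers of mature cells were at or near 0. The summed level of 5 markers of other blood cells was 0.909 CPM in the control, 3.73 in shRBM15#1 and 5.60 in shRBM15#2, so it was low but higher in both knockdown lines, with CD14 at 0.263, 0.648 and 3.93 CPM. The lineage markers did not share a direction. ITGA2B, the largest part of their sum, was at 919 CPM in the control, 476 in shRBM15#1 and 607 in shRBM15#2. GP1BA at 4.75, 3.37 and 3.72 CPM and GATA1 at 71.7, 64.2 and 66.0 CPM were also lower in both lines. TAL1 was higher in both, at 236, 347 and 399 CPM. ITGB3 at 6.28, 17.9 and 51.8 CPM and PPBP at 2.38, 6.12 and 56.9 CPM were higher too and set the knockdown lines apart from each other. The part of these differences in the results below was not tested.

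Most of the network was measured lower in the knockdown lines, with MXD1 as the widest difference and MXD4 as the exception. In both lines 7 of the 9 genes were below the control, MXD4 was above it, and MLX lay below it in one line and above it in the other. Among all 24887 genes tested, 39.5% were below the control in both lines and 39.7% above it. Lower values were not particular to the 9 genes. Of 47 partners and regulators of the network, described below, 28 (59.6%) were below the control in both lines and 7 above it. The 7 genes include MAX, whose lower exon bin led to the choice of the genes. Without its intron bins 011 to 021, described below, MAX was at 78.8, 71.1 and 80.8 CPM, above the control in shRBM15#2. Its place among the 7 thus rests on the intron that holds the bin it was chosen for. None of the 8 genes other than MAX passed an adjusted p of 0.01 or 0.05 in edgeR, where 0.346% and 1.74% of 24887 genes tested did. One of them, MXD1, had an unadjusted p under 0.05, against 18.8% of all genes. DESeq2 called 0 of the 8 at 0.05, against 3.57% of all genes. With 1 control library, the spread comes from the 2 knockdown lines with 1 residual degree of freedom per gene, so variation between control cultures was not measured, and fewer cells and less RNA per cell cannot be told apart.

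**Figure D1:**
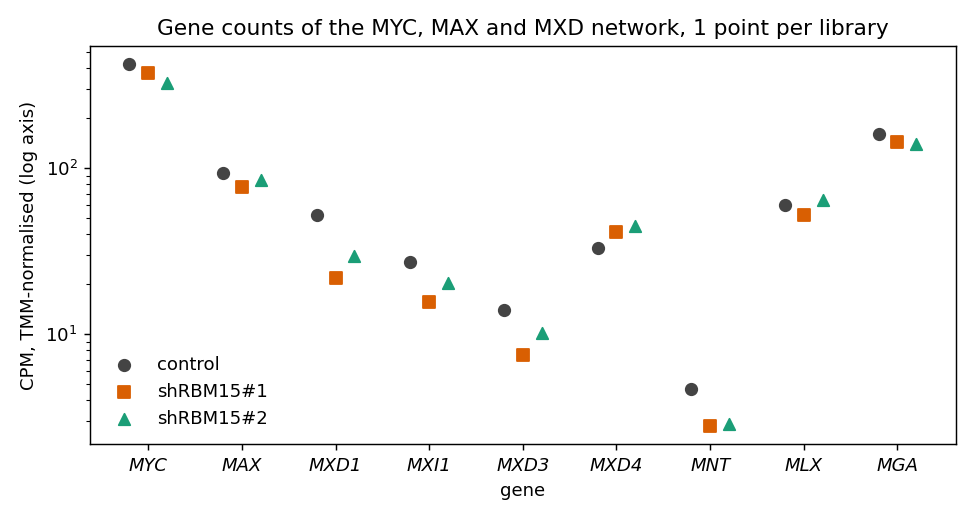
TMM-normalised CPM on a log axis for the 9 genes, with 1 point per library and no error bars since each point is a single library. MXD1 lay furthest below its control point, at 52.5 CPM in the control against 21.9 and 29.8 in the knockdown lines, and MXD4 was the gene with both knockdown points above it.

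MYC (ENSG00000136997, chromosome 8 from 128747680 to 128753674, plus strand, GRCh37), the activating partner, had 21042 counts in the control, 16786 in shRBM15#1 and 17134 in shRBM15#2. This was 425, 375 and 328 CPM. Both knockdown lines were below the control, with a log2 fold change of -0.27 ± 0.22 (SE) and an adjusted p of 0.546 in edgeR. MYC was by far the most abundant member per length, at 142 CPM per kb of exon bins in the control, 125 in shRBM15#1 and 110 in shRBM15#2. None of its 16 exon bins passed the test of usage relative to the rest of the gene. The bin with the smallest p, bin 001, held 8, 12 and 13 counts.

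MAX (ENSG00000125952, chromosome 14 from 65472892 to 65569413, minus strand) had 4659 counts in the control, 3437 in shRBM15#1 and 4467 in shRBM15#2, or 94.2, 76.8 and 85.6 CPM. The gene's total hid a contrast between its parts. The intron between the coding exon of bin 022 and the last exon is covered in full by bins 011 to 021, which belong to rarer transcripts, and all 11 of these bins were lower in both knockdown lines relative to the rest of the gene. Together these 1249 bases held 761 counts in the control, 254 in shRBM15#1 and 252 in shRBM15#2. They made up 16.3% of the gene's bin count in the control, 7.39% in shRBM15#1 and 5.64% in shRBM15#2. The bins outside the intron held 3898, 3183 and 4215 counts, or 78.8, 71.1 and 80.8 CPM, so the knockdown lines lay on either side of the control there. Without bins 011 to 021 the log2 fold change of MAX moved from -0.21 to -0.05.

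Within this intron lies an alternative exon of 85 bases (bins 016 and 017, chromosome 14 from 65544062 to 65544146), which also exists in a longer form of 101 bases with bin 015. In transcripts such as ENST00000394606 it brings a stop codon after 14 coding bases and is annotated as a target of nonsense-mediated decay, the pathway that removes mRNAs with early stop codons. Its 2 bins held 172 counts in the control, 41 in shRBM15#1 and 25 in shRBM15#2. That was 3.69%, 1.19% and 0.560% of the gene's bin count. Both knockdown lines were thus far below the control, and so was the rest of the intron, with 589, 213 and 227 counts. The splice junctions that frame this exon are shown because the lowest bins lie between them. Each is printed 5′ to 3′ on the minus strand of GRCh37. Capitals mark the bases at the ends of the introns, and in the alternative exon also the stop codon.
End of the coding exon of bin 022 and start of the intron, chr14:65544611-65544640: gagcagcaagGTgagcacccgagctcgtgg
Start of the alternative exon, with its stop codon, chr14:65544130-65544159: cctacaaccacAGgggaaagcgagagcTGA
End of the alternative exon, chr14:65544042-65544071: aaaaggaaatGCaagtaaccacctgggtta
End of its longer form, chr14:65544026-65544055: aaccacctggGTtagaaaacctcaaataaa
Start of the last exon, chr14:65543372-65543401: ctcccttggttgccttttAGtccgtgcact
The alternative exon is followed by GC in place of the usual GT, and the longer form, whose added bin has 16 bases, by GT.

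Bin 017 was the lowest bin of MAX in the knockdown relative to the control. It held 87 counts in the control, 21 in shRBM15#1 and 12 in shRBM15#2, and relative to the gene its log2 fold change was -2.13, at -1.61 in shRBM15#1 and -2.80 in shRBM15#2. Its neighbours in the exon and beyond moved with it. Bin 016 had 85, 20 and 13 counts, a relative log2 fold change of -2.10, and bin 018, which is intron upstream of the exon, had 62, 22 and 17 counts and -1.41. Over bins 011 to 021 the relative log2 fold changes ran from -2.13 to -0.79, whereas over the other 21 tested bins of MAX they ran from -0.07 to 0.90. The exons on either side did not share this difference. The coding exon of bin 022 had 220, 159 and 211 counts, which was 4.72%, 4.63% and 4.72% of the gene, and the last exon (bins 003 to 010) had 2821, 2182 and 2972 counts. Adjacent bins share reads that span their border, so neighbouring bins are not independent.

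**Figure D2:**
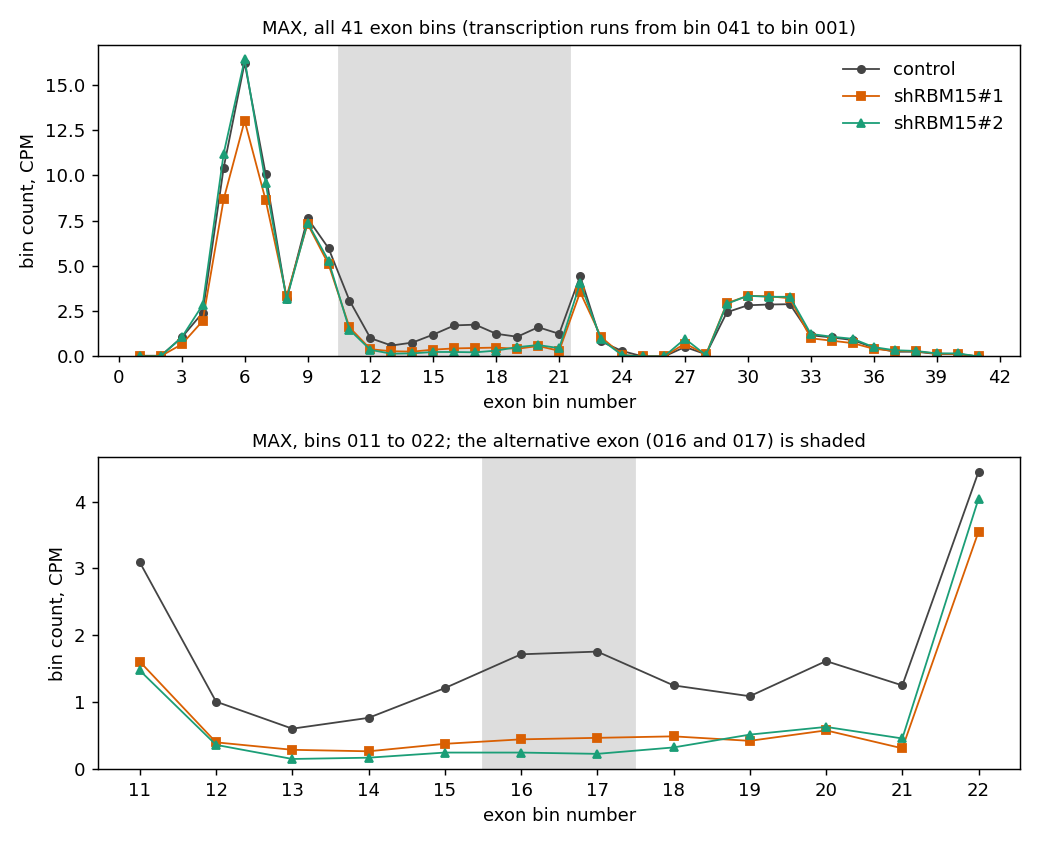
Bin counts of MAX in CPM by exon bin number, 1 line per library, with all 41 bins above and bins 011 to 022 enlarged below, and with no error bars since each line is a single library. In the shaded intron above, the control line lies over both knockdown lines, and over the 2 bins of the alternative exon shaded below it sums to 3.48 CPM, against 0.916 and 0.479 in the knockdown lines.

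The exon that separates the long and the short form of MAX was measured higher in both knockdown lines, on few counts and with no test. This coding exon of 27 bases (bin 027, chr14:65568264-65568290, minus strand), gaagagcaaccgaggtttcaatctgcg, lies ahead of the basic helix-loop-helix region. Bin 027 had 26 counts in the control, 32 in shRBM15#1 and 51 in shRBM15#2, which was 0.558%, 0.931% and 1.14% of the gene. The first exon (bins 029 to 038) had 751, 738 and 905 counts and a share of 16.1%, 21.5% and 20.3%. Its part next to the following intron, bins 029 to 032, had 546, 575 and 671 counts, whereas bins 033 to 038 had 205, 163 and 234 and a share of 4.40%, 4.74% and 5.24%. These shares rest in part on the lower share of the intron in the knockdown lines. The coding exon of bin 026, which most MAX transcripts hold, had 0 counts in all 3 libraries. It lies inside an exon of a gene on the other strand, ENSG00000259118, and its level is not known here. Reads that join bin 026 to bin 027 or to the first exon are thus absent from these counts. The counts of bin 027 therefore do not give the ratio of the long to the short form.

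To place the intron of MAX among other genes, the share of each gene's bin count in introns of its canonical transcript was compared. For MAX it was 17.7% in the control, 9.05% in shRBM15#1 and 6.92% in shRBM15#2, log2 changes of -1.11 and -1.53 against all other bins. Over 4448 genes with at least 100 intronic and 100 other counts in the control, the median log2 change was 0.01 in shRBM15#1 and -0.07 in shRBM15#2. Both lines were lower than the control for 41.3% of them, and 0 other genes were as low as MAX in both. This is a description, since MAX was chosen for this difference, and its place among these genes is no test of it. The minimum was also set on the control alone, the library in which this intron of MAX was high. MGA, with 1.57%, 1.34% and 1.49%, and MLX, with 8.35%, 9.18% and 8.23%, kept a steadier share, and MXD4 had 10.0%, 10.6% and 7.56%. The other members had under 100 intronic counts in the control. Among these, MXI1 had 69, 18 and 39 intronic counts, a share of 5.12%, 2.59% and 3.69% that was lower in both lines. MXD1, MXD3 and MNT went the other way, with a share above the control in both lines. It was 2.038%, 2.043% and 2.189% for MXD1 and 14.3%, 17.1% and 14.7% for MXD3. For MNT, on 15, 19 and 13 counts, it was 6.47%, 15.2% and 8.61%.

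The genes of the MXD proteins, which compete with MYC for MAX and recruit SIN3 and histone deacetylases, were not all measured in the same direction. Differences among these genes were not tested. MXD1 (ENSG00000059728, chromosome 2 from 70124820 to 70170077, plus strand), the founding member, had 2600 counts in the control, 979 in shRBM15#1 and 1553 in shRBM15#2. At 52.5 CPM in the control it was at 21.9 in shRBM15#1 and 29.8 in shRBM15#2, 41.6% and 56.6% of the control. The log2 fold change was -1.02 ± 0.27 (SE), with an adjusted p of 0.106 in edgeR, and it passed 0.05 only when no filter on low counts was used, at an adjusted p of 0.0186.

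MXI1 (ENSG00000119950, chromosome 10 from 111967363 to 112047123, plus strand) followed with 1348, 696 and 1058 counts, which is 27.2, 15.5 and 20.3 CPM. The log2 fold change of MXI1 was -0.60 ± 0.28 (SE) with an adjusted p of 0.293 in edgeR. MXD3 (ENSG00000213347, chromosome 5 from 176732501 to 176739758, minus strand), which is known for its expression in dividing cells, had 691, 334 and 530 counts, which is 13.96, 7.46 and 10.2 CPM. The log2 fold change of MXD3 was -0.66 ± 0.32 (SE) with an adjusted p of 0.310. In MXD1, MXI1 and MXD3 alike the control was highest and shRBM15#1 lowest, and the distance between the lines was a large part of the difference from the control.

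MXD4 (ENSG00000123933, chromosome 4 from 2249159 to 2264021, minus strand) had 1628 counts in the control, 1862 in shRBM15#1 and 2354 in shRBM15#2, or 32.9, 41.6 and 45.1 CPM. Both lines were above the control, with a log2 fold change of 0.40 ± 0.25 (SE) and an adjusted p of 0.420 in edgeR. The length in kb is that of all annotated bins, those in introns included, so the order and the sums below depend on the annotation. For MXD4 it includes intron bin 007, of 2486 bases and 2.08 CPM in the control. On this scale of CPM per kb the order of the repressors differed between libraries. MXD1 at 8.64, MXI1 at 5.91 and MXD4 at 4.71 was the order in the control, whereas MXD4 led in shRBM15#1 at 5.96, against 3.59 for MXD1 and 3.37 for MXI1, and in shRBM15#2 at 6.47, against 4.89 and 4.40. The 4 MXD genes summed to 22.6 CPM per kb in the control, 14.7 in shRBM15#1 and 18.2 in shRBM15#2, and without MXD4 to 17.9, 8.73 and 11.7.

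The end of MXD4 departed from the body of the gene. Bins 001 and 002 are the distal part of its 3′ untranslated region, the stretch after the stop codon (chromosome 4 from 2249159 to 2251803), and together they held 281 counts in the control, 127 in shRBM15#1 and 149 in shRBM15#2. The 9 exonic bins of the canonical transcript upstream of them held 1184, 1537 and 2027 counts. The distal bins thus fell from 17.3% of the gene's bin count to 6.82% and 6.33%, while the upstream exons went from 23.9 CPM in the control to 34.3 and 38.8. Neither bin overlaps a bin of another gene.

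Bin 001 of MXD4, of 2032 bases, had 198 counts in the control, 90 in shRBM15#1 and 105 in shRBM15#2. Relative to the gene its log2 fold change was -1.39 ± 0.28 (SE), with an adjusted p of 0.0049 over all 234192 bins tested in edgeR's diffSpliceDGE. Bin 002 of 613 bases had 83, 37 and 44 counts and a relative log2 fold change of -1.40 ± 0.36 (SE), with an adjusted p of 0.121. The adjusted p of bin 001 stayed under 0.05 in each of 6 alternative fits, between 0.00054 and 0.0473. Over all bins, 0.0410% passed an adjusted p of 0.05. The intron bin next to the middle exons, bin 007, had 103, 116 and 122 counts and did not share the fall.

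MXD1 also had a bin near its 3′ end past the limits. Bin 018, of 302 bases in the 3′ untranslated region (chromosome 2 from 70169773 to 70170074), had 110 counts in the control, 21 in shRBM15#1 and 35 in shRBM15#2. Its share of the gene went from 4.23% to 2.15% and 2.25%, a relative log2 fold change of -0.92 ± 0.37 (SE). It passed only before adjustment over all bins, with an adjusted p of 1 in edgeR. The larger part of the same untranslated region, bin 017, kept its share at 44.9%, 44.9% and 43.5%.

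**Figure D3:**
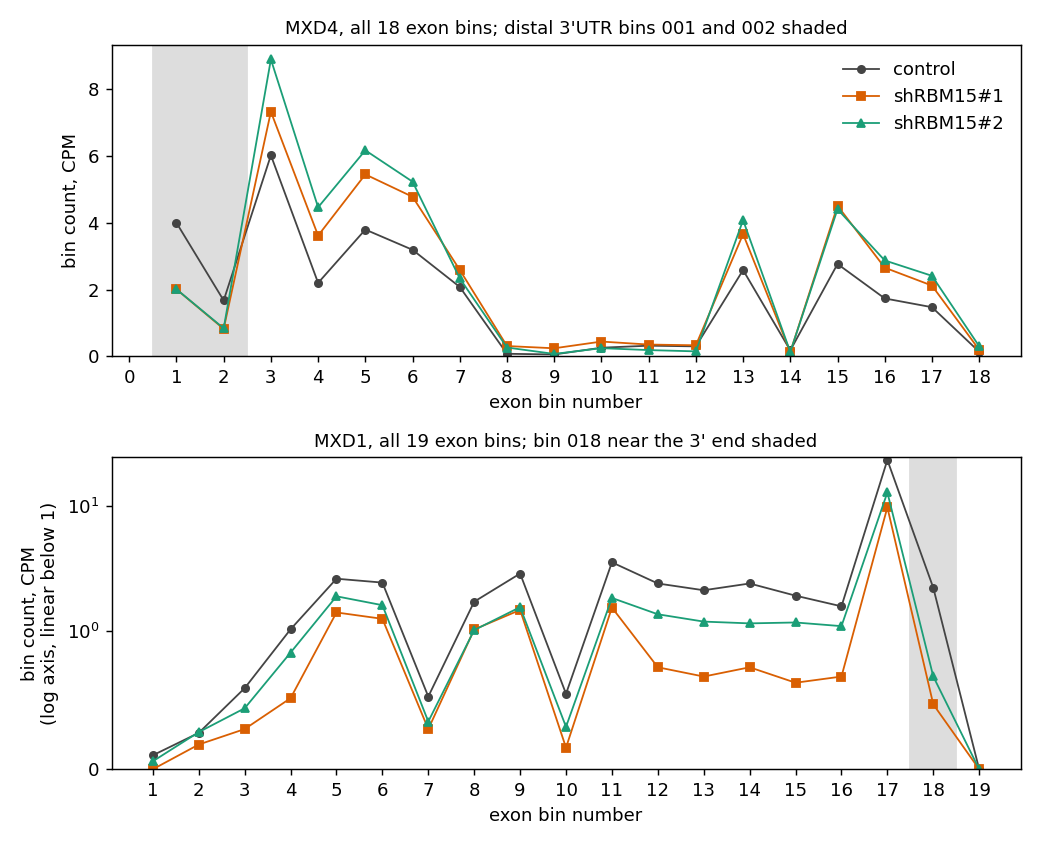
Bin counts in CPM by exon bin number for MXD4, on a linear axis, and for MXD1, on a log axis that is linear below 1, with 1 line per library and no error bars since each line is a single library. In the shaded distal bins 001 and 002 of MXD4 the control lies above the knockdown lines and in the coding exons below them, and in MXD1 the lines keep 1 order almost throughout, with a wider gap in the shaded bin 018.

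Across the 8 genes other than MAX, these were the 3 bins of 145 tested that passed the limits used in the study (p under 0.05 before adjustment, with more than a 1.2-fold difference), which is 2.07% against 1.85% of all bins tested. All 3 were lower in the knockdown, where 0.987% of all bins were. The bins with the smallest p in the other genes did not pass. They were bin 013 of MXI1 with 103, 38 and 51 counts, bin 013 of MXD3 with 18, 20 and 23, bin 007 of MNT with 21, 9 and 7, bin 014 of MLX with 26, 26 and 40, and bin 022 of MGA with 86, 116 and 101. The smallest of these p-values was 0.0539 in edgeR, for MXD3. Of the 240 bins of the 9 genes, 177 had a summed count of at least 30 and could be tested.

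**Figure D4:**
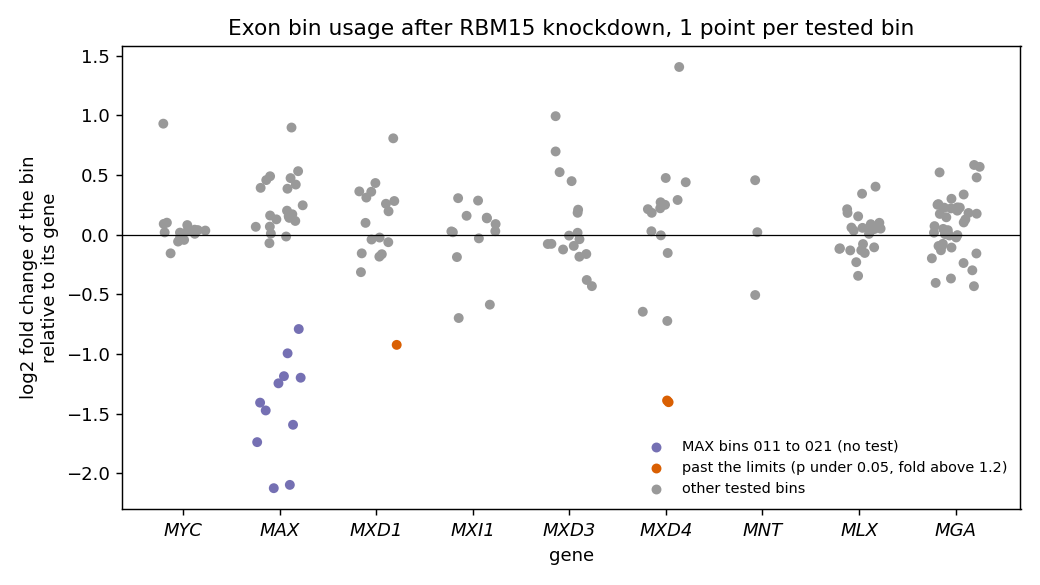
Log2 fold change of each tested exon bin relative to its gene after RBM15 knockdown, 1 point per bin, for the 9 genes. MAX bins 011 to 021 lie between -2.13 and -0.79, and the 3 coloured bins of MXD1 and MXD4 are those past the limits among the other genes.

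MNT (ENSG00000070444, chromosome 17 from 2287354 to 2304412, minus strand), a MAX partner that opposes MYC in many cell types, was the least abundant member. It had 232 counts in the control, 125 in shRBM15#1 and 151 in shRBM15#2, or 4.69, 2.79 and 2.89 CPM. The lines lay close to each other and below the control, with a log2 fold change of -0.72 ± 0.37 (SE) and an adjusted p of 0.334 in edgeR. MGA (ENSG00000174197, chromosome 15 from 41913422 to 42062141, plus strand), the scaffold of a variant Polycomb complex that also holds a T-box domain, had 7962, 6418 and 7311 counts, which is 161, 143 and 140 CPM. The log2 fold change of MGA was -0.18 ± 0.22 (SE) with an adjusted p of 0.696.

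MLX (ENSG00000108788, chromosome 17 from 40719086 to 40725257, plus strand) had 2959, 2332 and 3342 counts, or 59.8, 52.1 and 64.1 CPM. The control lay between the lines, with a log2 fold change of -0.04 ± 0.24 (SE) and an adjusted p of 0.948 in edgeR, and the sign turned when the minimum summed count per gene was 300. Per length in the control, MAX at 21.3 CPM per kb came after MYC, followed by MLX at 14.04, MGA at 11.1, the MXD genes, with MXD3 last among them at 3.30, and MNT at 0.793. Ranges over the 3 libraries overlapped between neighbours in this order only for MXD1 with MXI1 and MXI1 with MXD4. The length is again that of all annotated bins, so this order depends on the annotation as well as on the level.

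Around the network, 92 of 93 genes in 8 lists of partners, regulators and targets were tested, and HSPE1 and TFRC were the 2 that passed an adjusted p of 0.05 in edgeR, where 1.74% of all genes tested did, 0.534% as a rise. Both belong to the 34 MYC-activated targets. HSPE1, the mitochondrial co-chaperonin, rose from 42.4 CPM in the control to 112 in shRBM15#1 and 136 in shRBM15#2. Its log2 fold change was 1.55 ± 0.26 (SE), with an adjusted p of 0.0241 in edgeR. TFRC, the transferrin receptor, rose from 526 to 1202 and 1414 CPM, 1.31 ± 0.24 (SE) with an adjusted p of 0.036. Both lines stood above the control in each case.

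The MYC-activated targets had a median log2 fold change of 0.11, beside 0.02 for all genes, and 20 of 34 were above the control in both lines, against 39.7% of all genes. Their median was -0.02 with no filter on low counts, below the median of 0.44 over the 53542 genes then tested, and 0.25 at a minimum summed count of 300, above a median of 0.0009. The largest fall in the list was that of FBL, the methyltransferase of box C/D snoRNPs, at 361, 171 and 217 CPM, a log2 value of -0.89 with an adjusted p of 0.107 in edgeR. None of the 10 MYC-repressed targets passed 0.05, and their median was 0.45. CEBPA had the largest positive value there but only 5, 13 and 33 counts, and GADD45A the largest negative one, at 188, 86.5 and 152 CPM. THBS1, at 28.5, 105 and 61.2 CPM, had an adjusted p of 0.0694 in edgeR and passed 0.05 in DESeq2, with size factors and without the filter.

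Partners and regulators of the network gave 0 calls in edgeR at 0.05 among 47 genes, against 1.74% of all genes. At an unadjusted p under 0.05 there were 6, or 12.8%, against 18.8% of all genes, and DESeq2 called 0 at 0.05, against 3.57%. The median log2 fold change was -0.36 over 4 other network proteins, -0.27 over 11 MYC cofactors, -0.16 over 8 SIN3 complex genes, -0.02 over 12 partners of MGA and -0.15 over 12 genes of MYC turnover. MYCN was at 1.46, 0.491 and 0.613 CPM, the lowest value of its list at -1.39, and MLXIP, which encodes MondoA, the highest at 0.01. EP400, an ATPase of the NuA4/TIP60 complex, was at 35.6, 20.01 and 13.95 CPM with a log2 value of -1.07 and an adjusted p of 0.118, and ACTL6A was at 0.14. In the SIN3 complex RBBP4 was at -0.35 and RBBP7 at 0.08. Among partners of MGA, TFDP1 was at 54.3, 104 and 92.7 CPM with a log2 value of 0.86, and the methyltransferase EHMT2 was at -0.54. HUWE1, a ubiquitin ligase of MYC, was at 505, 322 and 228 CPM with a log2 value of -0.88 and an adjusted p of 0.136 in edgeR, and SKP2 was at 0.46. ARRDC4, a target of MondoA and MLX, was at 85.0, 42.2 and 68.9 CPM with a log2 value of -0.61, and TXNIP was not analysed here.

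**Figure D5:**
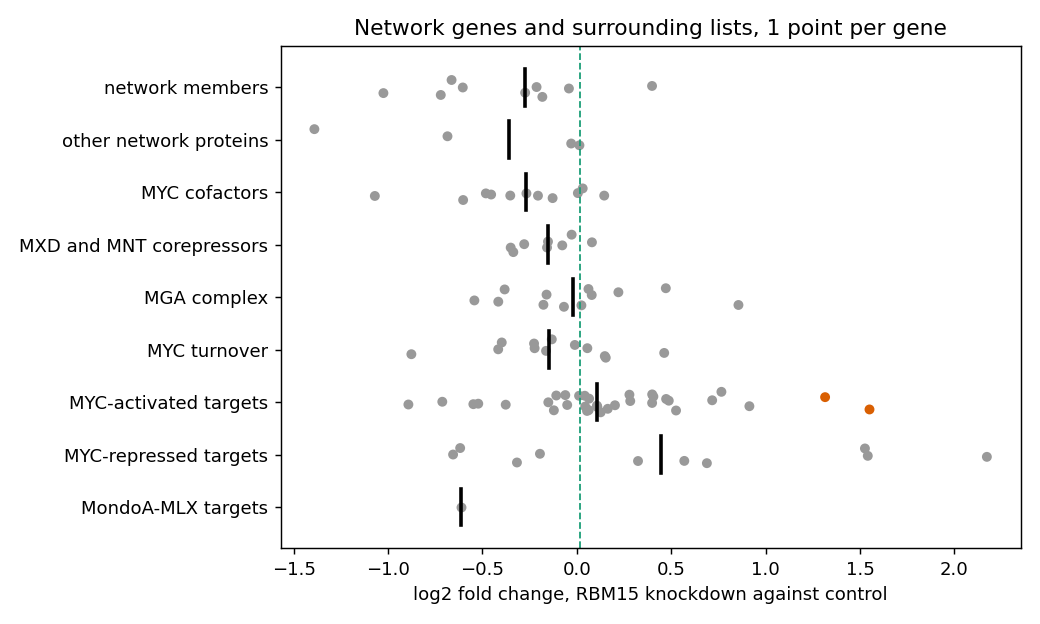
Log2 fold change of RBM15 knockdown against control for the 9 network genes and the genes of 8 surrounding lists, 1 point per gene, with a black bar at each list's median and a dashed line at the median of all genes tested, 0.02. The 2 coloured points, HSPE1 and TFRC, are the genes with an adjusted p under 0.05.

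The RIP-seq asked which RNAs RBM15 was bound to. None of the 9 genes had a site in the authors' list of 1515 significant sites, by gene symbol or by position, where 3.77% of 24054 tested genes with a symbol had one. The nearest site was 74.8 kb from MNT and the farthest of the nearest sites 1585 kb from MGA, and for MAX it was 723 kb. The list holds only sites that passed the authors' test, so weaker binding was not measured here.

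Among the 93 surrounding genes 15 had a listed site, which is 16.1% beside the 3.77% of tested genes, with 0 to 37.5% in single lists. The part of expression level in this share was not tested. They were TRRAP, RUVBL1 and ACTL6A of the MYC cofactors, HDAC1, HDAC2 and RBBP7 of the SIN3 complex, CBX3 and EHMT1 of the partners of MGA, and NCL, NPM1, FBL, DKC1, ODC1, HSPD1 and LDHA of the MYC-activated targets. The sites with the most reads lay in the 3′ untranslated regions of NPM1 and LDHA. At NPM1 (chromosome 5 from 170837628 to 170837878) the RBM15 antibody library had 8965 reads and the normal IgG library 182, and at LDHA (chromosome 11 from 18428871 to 18429317) these were 8911 and 125. TRRAP, a scaffold of histone acetyltransferase complexes that binds MYC, had 2 intronic sites, with 199 reads against 3 and 304 against 7. These are single libraries, and the excess is what the sites were listed for. HSPE1 and TFRC had no listed site.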

How the data were processed

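Unstranded RNA-seq reads had been aligned by the authors with STAR (GRCh37), and 1 deposited file per library gives raw counts in exon bins cut from the Ensembl models of release GRCh37.70. HTSeq 0.6.0 is named in the submitters' processing notes without a role. Lines that name no bin held 23.2%, 32.0% and 23.5% and were left out. The authors' DEXSeq table served for bin positions only, and its fold changes and p-values were not used. For the RIP-seq the authors deposited counts for sites that passed their DESeq test, and the deposited FDR, an adjusted p-value, was used only to restrict sites in an alternative.

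Bin counts were summed per gene and tested in edgeR 4.0.16 (R 4.3.3) by quasi-likelihood with TMM (factors 0.931, 1.08 and 0.996). A gene needed a sum of 30 counts, which 24887 genes had. Bin usage was tested with glmFit and diffSpliceDGE on 234192 bins, and DEXSeq itself was not used. Alternatives included DESeq2 1.42.0. p-values were adjusted by Benjamini-Hochberg over all genes or bins, and the scripts were tested on simulated data. Symbols were matched by identifier for 54481 genes of a GENCODE annotation lifted to GRCh37, from which places in genes and the stop codon were taken.

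The members and lists were chosen with earlier results of these data known. Named were all members, their called bins and smallest-p bin, the largest-falling MAX bin with its neighbours, list genes past an adjusted p of 0.05, and otherwise the largest rise and fall of a list. THBS1, and bins 007 and 017 shown beside called bins, were named after their values were seen, as were the RIP sites with the most reads. One lineage marker of the written list is not reported here and was left out of the marker sums.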

Additional observations from a re-analysis of the deposited data

How the results depend on the processing

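No paired analysis was possible because the control has 1 library, so the groups share fewer than 2 replicate numbers. With no filter beyond a summed count of 1, 53542 genes were tested in place of 24887 and their median was 0.44 in place of 0.02 on the log2 scale, while the 9 members had lower values, as for MYC with -0.41 in place of -0.27. Then 1 of the 8 genes was called (MXD1, -1.15, adjusted p = 0.0186 in edgeR). List genes called were 7 in place of 2 (EP400, HUWE1, FBL, CDKN1A and THBS1 in addition). Over all genes 1486 of 53542 passed an adjusted p of 0.05 there, against 432 of 24887 with the filter. Member bins called were 5 in place of 3 (bin 007 of MXI1 and bin 017 of MNT in addition). With a minimum of 300 counts 1 member bin was called (MXD4 bin 001, since the other 2 have fewer counts). The 9 members then had higher values, with MYC at -0.13 in place of -0.27 and MAX at -0.07 in place of -0.21. MGA was at -0.04 in place of -0.18, and MXD4 at 0.54 in place of 0.40. MLX was at 0.10 with an adjusted p of 0.808 in edgeR. The adjusted p of MXD1 ranged from 0.0186 to 0.103 over the alternatives, against 0.106. Genes at an adjusted p under 0.01 numbered 86, against 191 with size factors, 525 in DESeq2, 801 without the filter, 0 at a minimum of 300 (238 at 0.05, 2938 at an unadjusted p under 0.05) and 132 from bins of at least 100 bases. Bins past the study's limits numbered 4338 of 234192 tested, against 12705 of 494487 at a minimum of 1. They numbered 902 of 83596 at 300 and 2040 of 118263 among bins of at least 100 bases. At an adjusted p under 0.05 the 96 bins became 49 and 64 with these minimums, 54 among bins of at least 100 bases, 48 in a quasi-likelihood fit and 211 in a DEXSeq-type model. The alternatives with bins of at least 100 bases, MAX without bins 011 to 021 and the quasi-likelihood bin fit were chosen after seeing the data. Leaving out 1 knockdown line left 1 library a side and gave log2 fold changes only, from -1.25 to -0.82 for MXD1, from 0.35 to 0.46 for MXD4 and from -0.19 to 0.10 for MLX. The RIP counts of 0 and 15 were 0 and 11 at an FDR under 0.01 and 0 and 15 by position.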
